A study of Arabidopsis thaliana with 51 samples.

Results

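The probes described here differed in the same direction between light and dark RNA on arrays of 2 organs of Arabidopsis seedlings, cotyledon and root. They were chosen on 4 arrays on which light and dark RNA of an organ were hybridised together, 2 for cotyledons and 2 for roots. With every array's median set to 0, a probe is a member when all 4 log2 ratios of light over dark were at or above 1 (higher in light) or all 4 were at or below -1 (lower in light). A value of 1 on this scale is a 2-fold difference. KIN1, KIN2, LHB1B2, AT1G19530 and AT4G27450 were left out by the rule. This gave 435 members of 27600 probes, 233 higher and 202 lower in light, and 24204 probes had a value on all 4 arrays. The members can be named for 30 probes, 23 higher and 7 lower in light. Only 6.49% of all probes are named here. Probes with several symbols, of genomic clones or disagreeing within their accession were left unnamed.

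As background, a seedling in the dark puts its growth into the hypocotyl and keeps its cotyledons closed and pale, and light reverses this through the phytochromes, the cryptochromes and the transcription factors they control. In cotyledons the change brings chloroplasts and photosynthesis, while roots meet light rarely and stay largely without chlorophyll. Light also acts on growth, transport, protein synthesis, cell walls and secondary metabolism, in roots as well as in shoots.

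The study held 51 two-colour arrays, of which 45 set an organ against a reference of cultured cells and 6 set light directly against dark. The groups used for the light comparisons were light cotyledon (2 arrays), dark cotyledon (3 arrays), light root (2 arrays), dark root (2 arrays), light hypocotyl (2 arrays) and dark hypocotyl (2 arrays), each against cultured cells, and 2 direct arrays for each of the 3 organs. The other 11 groups, of 2 to 4 arrays, were leaves, stem, flower organs, siliques and germinating seed. The labels used here give no genotype, age or light treatment, and do not say that arrays of a group came from separate plants, so the p-values cover only the variation among these arrays, and that may be technical. On the direct cotyledon and root arrays the light RNA was in channel 1 every time, so light and dye cannot be told apart there. On the direct hypocotyl arrays it was in channel 2, and the direction of those deposited ratios is not settled. The other ratios are read as organ over cultured cells and as light over dark, a direction that is likely but not stated.

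The arrays against cultured cells were not used to choose the members, and light minus dark through that reference is the test given below. Both conditions were in channel 2 for cotyledon and hypocotyl, so a dye effect common to both drops out. In roots, light RNA was in channel 2 on the array labelled n1 and in channel 1 on the array labelled p1, and dark RNA was in channel 2. A dye effect therefore need not drop out in roots. On p1 the light RNA was in the same channel as on the arrays that chose the members. The labels do not say whether this RNA is separate from that of the direct arrays, and both light root arrays carry the number 1. A probe was called when its adjusted p was under 0.05 and its change at least 2-fold. Fewer cells of a type and less RNA per cell cannot be told apart in such whole-organ samples. Arrays held between 7410 and 26657 values, and their number limits the precision. The 9 probes of light harvesting and photosystem genes checked the organ labels, with a median log2 ratio over cultured cells of 7.81 in light cotyledons and 8.13 in cauline leaves, against 0.06 in dark roots and 0.64 in light roots.

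On the direct arrays, which are the values the rule used and carry no test, 1697 probes passed 1 on both cotyledon arrays and 1065 on both root arrays, and 234 of these were the same probes. At or below -1 the counts were 1712 and 1401, with 204 in common. Probes going opposite ways were fewer, 59 with cotyledon higher and root lower and 66 the other way. Replicate direct arrays correlated at 0.619 in cotyledon and 0.472 in root across probes, and cotyledon with root arrays at 0.221 to 0.257. All 4 arrays had light in channel 1, and the part of dye in these counts and correlations was not tested. The cotyledon response through the reference correlated with the direct root arrays at 0.090 and 0.059. The root response through the reference correlated with the direct cotyledon arrays at 0.176 and 0.184. The smallest of a member's 4 absolute values had a median of 1.26 among members higher in light and 1.29 among members lower in light. Just inside the threshold stood AT1G41880 with a smallest value of 1.01, scpl29 with 1.03 and GRX480 with 1.03, and just outside stood GSTU18 with 0.99, AT5G05600 with 0.99 and GPDHp with 0.97. In a fit to the same direct values, which chose the members and so test nothing, 194 of the 233 members higher in light were called higher in cotyledon and 175 in root, where 6.55% and 4.81% of all probes were. Of the 202 members lower in light 98 were called lower in cotyledon and 104 in root, where 4.82% and 4.31% of all probes were. On the lower side AT1G64385 at -1.07 was inside and AtLEA4-1 at -0.95 was outside.

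**Figure D1:**
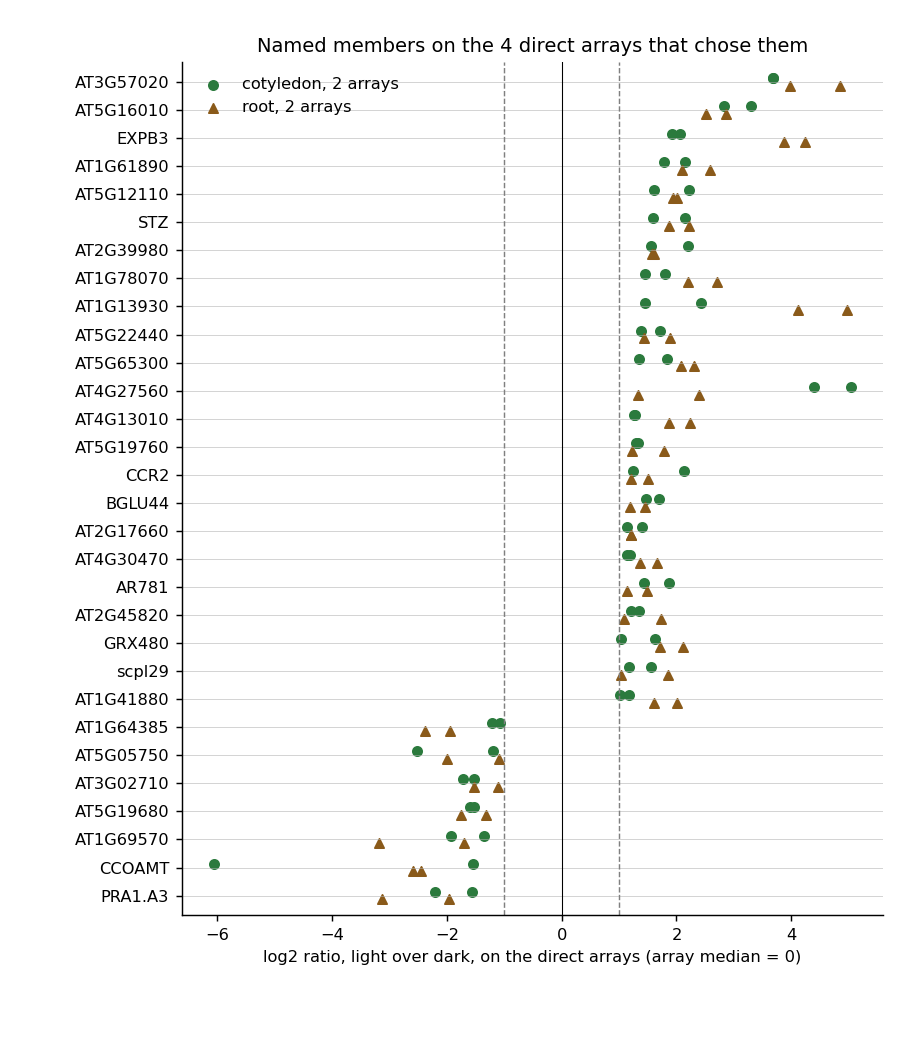
Each row is a named member and each point its log2 ratio of light over dark on 1 direct array, with circles for cotyledon and triangles for root, and dashed lines at -1 and 1 where the rule drew its limits. AT3G57020 has the largest smallest value of the named members, 3.68, and CCOAMT has 1 cotyledon value, -6.06, far from its other, -1.54.

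Through the reference, most members higher in light kept that direction in both organs. In cotyledons 225 of the 233 were tested, 119 were called higher and 0 lower, which is 52.9% against 4.91% of all probes tested. In roots 211 were tested, 97 were called higher and 0 lower, 46% against 5.14% of all probes. The median log2 change was 1.77 in cotyledons and 1.67 in roots, against -0.05 and 0.24 over all probes tested. In both organs 56 of 208 members were called higher, 26.9% against 0.637% of all probes, and 8 of these 56 are named. Without the light cotyledon array 1 fewer members were called in cotyledon, and without the light root array p1 or the dark root array 2 fewer in root. Fewer of all probes were called in these fits, too. The median change of the members was then 1.75, 1.33 and 1.53, in that order, against -0.08, 0.127 and 0.175 over all probes. Over all probes 82.7% of the root calls were higher, and 54.5% with no centring, where the root count of members was 50 and the median of all probes -0.10.

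The members lower in light also held calls in their own direction. In cotyledons 24 of 172 tested were called lower and 1 higher, with a median log2 change of -0.57. The shares were 14% lower and 0.581% higher, against 3.17% and 4.91% of all probes. In roots 27 of 142 were called lower and 0 higher, 19% against 1.08%, with a median of -1.29. In both organs 16 of 127 were called lower, 12.6% against 0.205% of all probes, and none of the 16 is named. Fewer of these members, and fewer of all probes, were called lower without the light cotyledon array 1, the light root array p1 or the dark root array 2. The median change of the members was then -0.58, -0.83 and -1.50, in that order, against -0.08, 0.127 and 0.175 over all probes.

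**Figure D2:**
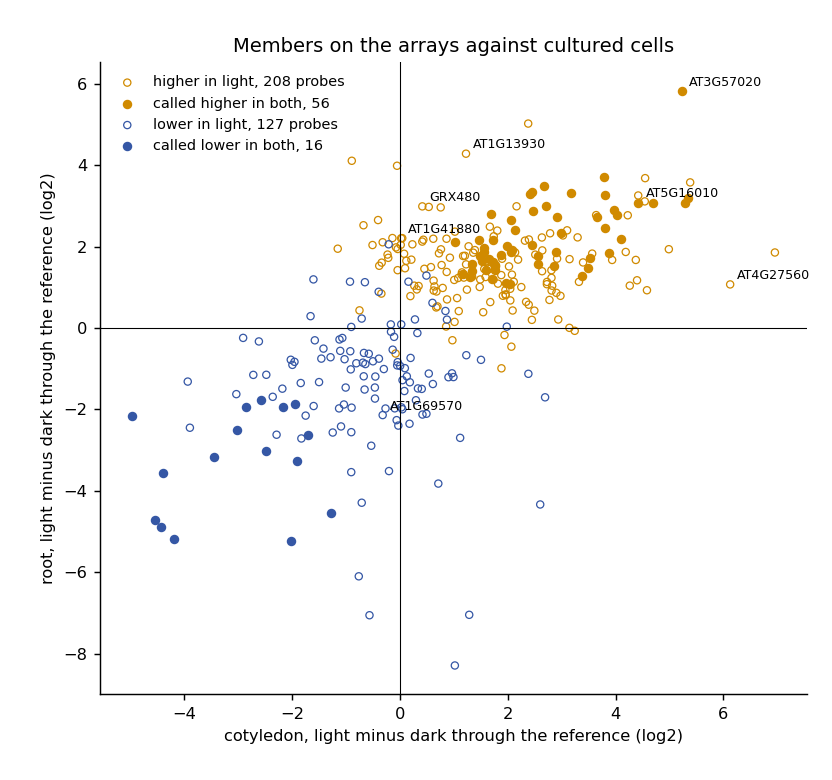
Each point is a member probe, with its light minus dark change through the reference in cotyledon on the horizontal axis and in root on the vertical axis, both in log2, and filled points were called in both organs. The 56 filled points of the members higher in light lie in the upper right and the 16 of the members lower in light in the lower left, while open points spread more widely.

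AT3G57020, which encodes a strictosidine synthase-like protein, had the largest root response of the named members tested, and in cotyledon only AT4G27560 had a larger one among them. Its log2 ratio over cultured cells was 5.03 and 6.17 on the light cotyledon arrays and 1.30, -0.01 and -0.17 on the dark ones. In roots it was 6.99 and 6.71 in light and 1.12 and 0.95 in the dark, and light and dark arrays did not overlap in either organ. The log2 change was 5.23 ± 0.45 (SE) in cotyledon (adjusted p = 2.3e-09) and 5.82 ± 0.50 in root (adjusted p = 5.4e-09), and the difference between the organs, 0.59 ± 0.67, did not pass the test (adjusted p = 0.68). With only the arrays compared the root call ended (adjusted p = 0.12), and with the replicate block the cotyledon call ended (adjusted p = 0.23). AT3G57020 had no value on either light hypocotyl array, so its response there was not tested.

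AT5G16010, of the 3-oxo-5-alpha-steroid 4-dehydrogenase family, rose in all 3 organs, and no single array left out ended any of these calls. Light cotyledon arrays gave 5.74 and 5.62 and dark ones 1.33, 1.58 and 0.84. Light root arrays gave 2.85 and 3.03 and dark ones -0.44 and 0.17, and light hypocotyl arrays gave 1.70 and 3.47 and dark ones -0.79 and -1.06. Every light array was above every dark array of its organ. The log2 changes were 4.42 ± 0.41 (adjusted p = 2.5e-09) in cotyledon, 3.07 ± 0.45 (adjusted p = 4.2e-05) in root and 3.51 ± 0.45 (adjusted p = 3.1e-07) in hypocotyl. With only the arrays compared, adjusted p was 0.23 in root and 0.057 in hypocotyl. With the replicate block it was 0.23 in cotyledon and 0.13 in hypocotyl. Over all probes tested the median hypocotyl change was 0.65 and 30.8% were called higher, which bears on every hypocotyl change given below.

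Among genes of transport and membranes, AT1G61890, a MATE-type efflux carrier, read 6.60 and 6.21 in light cotyledons against 4.43, 3.80 and 3.64 in dark ones. It read 4.16 and 4.88 in light roots against 2.66 and 2.31 in dark roots. It was thus already well above cultured cells in the dark and rose by a log2 change of 2.45 ± 0.46 in cotyledon (adjusted p = 0.00038) and 2.03 ± 0.51 in root (adjusted p = 0.012). The remorin AT2G45820, of a family of plasma membrane proteins, read 2.37 and 2.36 in light cotyledons against 0.89, 0.22 and 0.11 in dark ones. It rose by 1.96 ± 0.29 in cotyledon (adjusted p = 1.6e-05), by 1.11 ± 0.32 in root (adjusted p = 0.031) and by 1.09 ± 0.32 in hypocotyl (adjusted p = 0.0072). The median hypocotyl change of all probes tested was 0.65. AT5G19760, the mitochondrial dicarboxylate and tricarboxylate carrier, read 0.62 and 1.65 in light roots against -0.19 and -1.20 in dark ones and rose there by 1.83 ± 0.34 (adjusted p = 0.001). In cotyledon its change was 0.73 ± 0.31 and was not called. The root calls did not hold without the light array p1, where adjusted p was 0.25 for AT1G61890, 0.59 for AT2G45820 and 0.11 for AT5G19760, nor without the dark array 2, where it was 0.15, 0.33 and 0.088. The root call of AT1G61890 ended with no centring, too (adjusted p = 0.089). The root change of AT2G45820 was also below 2-fold with no centring, 0.77, and with centring on named probes, 0.96. Its hypocotyl change was 0.85 with centring on named probes and lost its call, at an adjusted p of 0.055, without the dark hypocotyl array 2.

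Genes of protein synthesis were 3 of the named members. AT5G12110, a subunit of elongation factor 1B, read -0.04 and -0.14 in light cotyledons against -1.80, -2.06 and -2.04 in dark ones. In roots it read -1.66 and -0.66 in light against -2.72 and -3.19 in the dark, and in hypocotyls -1.33 and -1.45 against -2.59 and -2.95. It was therefore below cultured cells in the dark in each organ and nearer to them in light, with log2 changes of 1.88 ± 0.44 (adjusted p = 0.0038), 1.80 ± 0.48 (adjusted p = 0.019) and 1.38 ± 0.48 (adjusted p = 0.021). These calls ended without the light cotyledon array 1 (adjusted p = 0.059), without the light root array p1 (0.41) or the dark root array 2 (0.22), and without either light hypocotyl array (0.091 and 0.063) or the dark hypocotyl array 2 (0.13). The root call also ended with no centring (0.11), and the hypocotyl call with centring on named probes (0.054) and with every array scaled to a common median absolute value (0.099), called scaling from here on. The hypocotyl change stood beside a median of 0.65 over all probes tested.

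The ribosomal protein gene AT1G41880, of the L35Ae family, read -1.67 and -1.59 in light cotyledons and -1.48, -1.66 and -1.83 in dark ones, so these arrays overlapped. In roots it read 0.12 and 0.87 in light against -1.31 and -2.09 in the dark, and in hypocotyls -0.11 and -0.22 against -2.20 and -2.33. It rose in root by 2.20 ± 0.28 (adjusted p = 7.5e-06) and in hypocotyl by 2.11 ± 0.28 (adjusted p = 8.5e-07), while its cotyledon change was 0.02 ± 0.26. AT5G22440, a ribosomal protein gene of the L10a family, followed the same order. It read -2.58 and -2.47 in light cotyledons against -2.38, -2.92 and -2.98 in dark ones, and -0.15 and 0.49 in light roots against -1.78 and -1.99 in dark roots. Its changes were 0.23 ± 0.28 in cotyledon, not called, 2.05 ± 0.31 in root (adjusted p = 6.4e-05) and 2.07 ± 0.31 in hypocotyl (adjusted p = 3.3e-06). The root response exceeded the cotyledon response by 2.18 ± 0.38 for AT1G41880 (adjusted p = 0.00047) and by 1.82 ± 0.42 for AT5G22440 (adjusted p = 0.0059), and the latter did not hold without the light root array p1 (adjusted p = 0.076). Both genes had passed the rule in cotyledon on the direct arrays, AT1G41880 with 1.01 and 1.18 and AT5G22440 with 1.38 and 1.72.

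Enzymes of small-molecule metabolism included AT4G27560, a UDP-glycosyltransferase whose near neighbour AT4G27570 is very similar, so the probe may read both. It read 9.15 and 5.25 in light cotyledons against 0.28, 1.99 and 0.96 in dark ones. In roots it read 2.64 and 2.43 in light and 1.96 and 0.97 in the dark. It rose in cotyledon by 6.12 ± 0.95 (adjusted p = 3.8e-05), or 4.18 without the light array 1, and its root change of 1.07 ± 1.04 was not called. AT4G30470, related to cinnamoyl-CoA reductases, read 2.72 and 2.52 in light cotyledons against 1.21, 1.03 and 1.06 in dark ones. It read 0.59 and 1.37 in light roots against -0.41 and -0.90 in dark roots, and rose by 1.52 ± 0.46 (adjusted p = 0.034) and 1.64 ± 0.50 (adjusted p = 0.047). Leaving out any 1 of the 5 cotyledon arrays ended its cotyledon call, with adjusted p from 0.057 to 0.23, and leaving out the light root array p1 (0.5), the dark root array 1 (0.068) or the dark root array 2 (0.35) ended its root call, as did no centring (0.17) and centring on named probes (0.084).

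CCR2, the cinnamoyl-CoA reductase AT1G80820, was called in hypocotyl. It read 3.91 and 5.04 in light hypocotyls against 1.15 and 0.33 in dark ones, and rose by 3.73 ± 0.80 (adjusted p = 0.00042). In cotyledon its light arrays, 2.33 and 0.40, stood above the dark ones, 0.21, -0.18 and -0.64, and its change of 1.57 ± 0.73 was not called, nor was the root change of 1.45 ± 0.80. The hypocotyl response of CCR2 exceeded that of cotyledon by 2.17 ± 1.08 and that of root by 2.28 ± 1.13, neither of which was called (adjusted p = 0.14 and 0.18). AT2G39980, an acyltransferase of the HXXXD type, rose by 1.70 ± 0.35 in cotyledon (adjusted p = 0.0009), by 1.21 ± 0.38 in root (adjusted p = 0.049) and by 2.32 ± 0.38 in hypocotyl (adjusted p = 1.4e-05). It read 1.74 and 1.77 in light cotyledons and 1.36, -0.60 and -0.60 in dark ones, so the dark array 1 stood near the light arrays. Its root call ended without any 1 of 3 arrays, the light array p1 (adjusted p = 0.57), the dark array 1 (0.34) or the dark array 2 (0.067). It also ended with no centring (a change of 0.87, adjusted p = 0.36), with centring on named probes (0.091) and with scaling (0.072).

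AT4G13010, the chloroplast envelope quinone oxidoreductase homolog, rose in all 3 organs. It read 1.24 and 0.79 in light cotyledons against 0.07, -0.68 and -0.78 in dark ones, -0.66 and 0.32 in light roots against -1.73 and -2.13 in dark ones, and -0.19 and -0.07 in light hypocotyls against -1.64 and -1.59 in dark ones. No light array overlapped the dark arrays of its organ. The log2 changes were 1.48 ± 0.34 (adjusted p = 0.0033) in cotyledon, 1.76 ± 0.37 (adjusted p = 0.0031) in root and 1.49 ± 0.37 (adjusted p = 0.0018) in hypocotyl, and none of the differences between these responses was called. All probes tested had a median change of 0.65 in hypocotyl. The cotyledon call ended without the light array 1 (adjusted p = 0.11) and the root call without the light array p1 (0.2) or the dark array 2 (0.076). BGLU44, a beta-glucosidase, read 2.74 and 3.78 in light roots against 4.89 and 2.24 in dark ones, which overlap, and its changes of 0.98 ± 0.89 in cotyledon and -0.30 ± 0.97 in root were not called.

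STZ, a zinc finger repressor induced by salt and cold, read 3.20 and 2.83 in light cotyledons against 1.38, 1.13 and 1.30 in dark ones, and 2.63 and 3.77 in light roots against 1.12 and 0.77 in dark ones. It rose by 2.25 ± 0.63 in root (adjusted p = 0.026), and its cotyledon change of 1.74 ± 0.57 had an adjusted p of 0.054. The root call of STZ ended without the light array p1 (adjusted p = 0.43), the dark array 1 (0.058) or the dark array 2 (0.22), and with no centring (0.093). GRX480, a glutaredoxin that binds TGA transcription factors, read 1.75 and 2.71 in light roots against -0.38 and -1.13 in dark ones and rose by 2.99 ± 0.43 (adjusted p = 4.6e-05). In cotyledons it read 0.46 and 0.66 in light and 0.70, -0.12 and -0.15 in the dark, a change of 0.42 ± 0.39 that was not called. The root response of GRX480 exceeded its cotyledon response by 2.57 ± 0.58 (adjusted p = 0.0057), and this did not hold without the light root array p1 (0.078) or the dark root array 2 (0.058).

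AT2G17660, of the RIN4 family, read 3.11 and 5.80 in light cotyledons against 0.53, 2.52 and 3.42 in dark ones, so its arrays overlapped, and its change of 2.30 ± 1.45 was not called. AT1G13930 read 3.60 and 7.01 in light roots, far apart from each other, against 0.99 and 1.05 in dark roots. It rose in root by 4.28 ± 0.74 (adjusted p = 0.00044) and in hypocotyl by 2.82 ± 0.74 (adjusted p = 0.0028), and its cotyledon change of 1.23 ± 0.68 was not called. Without the light root array p1 the root change was 2.58 (adjusted p = 0.11), and without the light hypocotyl array 1 the hypocotyl change was 2.001 (adjusted p = 0.085).

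AT1G78070, a WD40 repeat protein, read 5.86 and 5.41 in light cotyledons against 3.03, 3.44 and 3.48 in dark ones and rose by 2.32 ± 0.75 (adjusted p = 0.049). Leaving out any 1 of the 5 cotyledon arrays ended this call, with adjusted p from 0.082 to 0.3, and so did no centring (0.057), centring on named probes (0.057) and scaling (0.069). AT5G65300 read 1.49 and 1.52 in light cotyledons against 0.04, -0.46 and -0.27 in dark ones and 0.57 and 0.94 in light hypocotyls against -1.14 and -1.34 in dark ones. It rose by 1.74 ± 0.50 in cotyledon (adjusted p = 0.022) and by 1.997 ± 0.55 in hypocotyl (adjusted p = 0.004). The cotyledon call of AT5G65300 ended without any 1 of 4 of the 5 arrays, with adjusted p from 0.056 to 0.15, and with scaling (0.05). AR781 read -0.12 and -0.25 in light cotyledons against -2.12, -2.40 and -2.62 in dark ones and rose by 2.19 ± 0.61 (adjusted p = 0.018). Its call ended without the light array 1 (0.14), the light array 2 (0.11) or the dark array 3 (0.059).

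The wall gene EXPB3, a beta-expansin, had direct values of 2.06 and 1.92 in cotyledon and 3.87 and 4.24 in root, but too few values against cultured cells to be tested in any of the 3 organs. The serine carboxypeptidase-like gene scpl29 read 3.06 and 4.14 in light roots against 1.55 and 0.93 in dark ones, and its changes of 2.37 ± 0.95 in root and 1.02 ± 0.87 in cotyledon were not called.

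**Figure D3:**
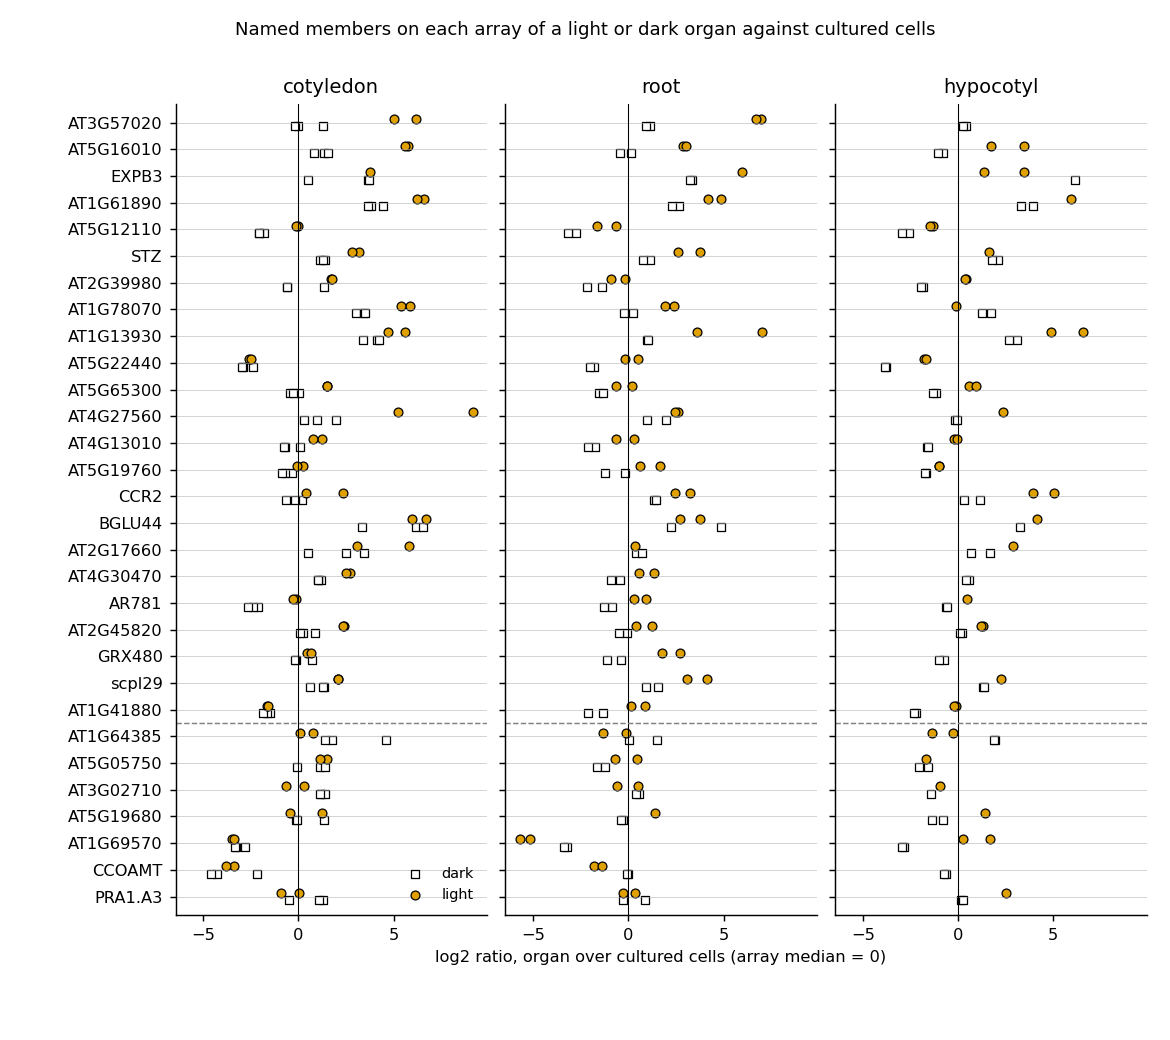
Each row is a named member and each point its log2 ratio over cultured cells on 1 array, with circles for light and squares for dark, in 3 panels for cotyledon, root and hypocotyl. A dashed line parts the 23 members higher in light, above, from the 7 lower in light, and for AT5G16010 and AT4G13010 every circle lies to the right of every square of its panel.

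No named member lower in light was called lower through the reference in cotyledon, root or hypocotyl. CCOAMT, of the caffeoyl-CoA O-methyltransferase family, read -1.82 and -1.38 in light roots against -0.03 and -0.08 in dark roots, a change of -1.55 ± 1.05 that was not called (adjusted p = 0.44). In cotyledon its arrays overlapped, at -3.37 and -3.80 in light and -2.15, -4.26 and -4.59 in the dark. AT1G64385 was lower on every light array than on the dark arrays of its organ, with 0.75 and 0.09 against 1.77, 4.62 and 1.40 in cotyledon, -0.11 and -1.34 against 1.49 and 0.04 in root, and -0.29 and -1.39 against 1.94 and 1.90 in hypocotyl. Its changes of -2.18 ± 1.10, -1.49 ± 1.20 and -2.76 ± 1.20 in cotyledon, root and hypocotyl were not called, at adjusted p of 0.28, 0.54 and 0.065. AT3G02710 read 0.30 and -0.65 in light cotyledons against 1.19, 1.39 and 1.14 in dark ones, a change of -1.41 ± 0.90 that was not called.

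PRA1.A3 read -0.89 and 0.04 in light cotyledons against 1.31, 1.08 and -0.47 in dark ones, with a change of -1.07 ± 0.71 that was not called, and its light and dark root arrays overlapped. The leucine-rich repeat gene AT5G19680 had changed by 0.02 ± 1.06 in cotyledon, where its light arrays at -0.43 and 1.23 enclosed 2 of the 3 dark arrays. AT5G05750, a DnaJ-domain chaperone gene, read 0.43 and -0.70 in light roots against -1.62 and -1.22 in dark ones, a change of 1.29 ± 0.98 in the direction opposite to its direct root values of -2.01 and -1.09, and it was not called. AT1G69570, which encodes the cycling Dof factor CDF5, was lower on the light root arrays, -5.14 and -5.70, than on the dark ones, -3.21 and -3.35, and its root change of -2.14 ± 1.15 was not called. In hypocotyl it went the other way, with 1.68 and 0.26 in light against -2.84 and -2.93 in the dark, a rise of 3.86 ± 1.15 (adjusted p = 0.0077) that lost its call without the light array 1 (3.15, adjusted p = 0.089) or with scaling (0.05). The hypocotyl response of AT1G69570 exceeded its root response by 5.996 ± 1.63 (adjusted p = 0.012). An antisense transcript overlaps this gene, and the strand its probe reads is not given here.

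Most members are unnamed here, 210 of the 233 higher in light and 195 of the 202 lower in light. Of these 195, 7 carry several symbols in the annotation and 1 carries a symbol that was not used. The calls divide much as the members do, with 142 unnamed of the 160 members higher in light that were called higher in cotyledon or root, and no name among the 35 members lower in light called lower in either organ. Probe 3253961 had direct values of 3.77 and 3.91 in cotyledon and 2.77 and 3.30 in root, and rose through the reference by 3.78 ± 0.44, 3.70 ± 0.48 and 6.32 ± 0.48 in cotyledon, root and hypocotyl (adjusted p = 2.1e-07, 8e-06 and 1.8e-11). Probe 3244319 had direct values of -6.44, -4.91, -4.38 and -3.59 and fell through the reference in cotyledon and root, with log2 changes of -4.18 ± 0.42 and -5.18 ± 0.47 (adjusted p = 1.8e-08 and 5.4e-09). Its hypocotyl change of -0.76 ± 0.47 was not called (adjusted p = 0.19). Probe 3244123, with direct values from 3.05 to 3.54, rose by 4.03 ± 0.53 in cotyledon and 2.76 ± 0.58 in root (adjusted p = 1.8e-06 and 0.0029). Probe 3217165, with direct values from -5.23 to -3.27, changed by -1.11 ± 1.13 in cotyledon and was not called (adjusted p = 0.72). Neither was tested in hypocotyl, nor the latter in root. These 4 probes were left unnamed here.

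The hypocotyl had no part in choosing the members. Of the members higher in light 146 were tested there through the reference, and 102 were called higher and 3 lower. The shares were 69.9% and 2.05%, against 30.8% and 6.63% of all probes tested. The median log2 change of the members higher in light was 1.97, against 0.65 over all probes tested. Of the members lower in light 62 were tested, and 10 were called lower and 4 higher, with a median of -0.75. The shares were 16.1% lower and 6.45% higher, against 6.63% and 30.8% of all probes. In all 3 organs 31 of 137 members were called higher, 22.6% against 0.645% of all probes, and 5 of the 31 are named, AT2G39980, AT2G45820, AT4G13010, AT5G12110 and AT5G16010. In all 3 organs 6 of 47 were called lower, 12.8% against 0.115%. The 3 responses were measured against the same reference, and 87 of the members higher in light and 140 of those lower in light had too few hypocotyl values to be tested. Missing values were mostly on the light arrays. Of the members higher in light 151 had enough values in light hypocotyl and 220 in dark hypocotyl, and of those lower in light 75 and 156. These shares thus cover only probes measured in light hypocotyl, and whether probes low there were lost more often was not tested.

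The direct hypocotyl arrays, given as deposited, ran the other way for the members higher in light. Of 229 tested 1 was called above 0 and 99 below 0, 0.437% and 43.2% against 9.64% and 7.11% of all probes, with a median of -1.07. Among 142 of them tested both ways, 118 were above 0 through the reference and below 0 on the direct arrays, 2 were the reverse and 22 had the same sign. AT5G16010 gave -3.03 and -3.23 on the direct arrays against its rise of 3.51 through the reference. Of the members lower in light 37 of 180 were called above 0 and 17 below, 20.6% and 9.44% against 9.64% and 7.11% of all probes. Of all calls on these arrays 57.6% were above 0, and 16.7% with no centring. Over all probes the direct hypocotyl arrays correlated at -0.070 and -0.083 with the response through the reference, where the cotyledon arrays gave 0.486 and 0.514 and the root arrays 0.428 and 0.453. The part of channel or deposited direction in this was not tested.

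The differences between organs were tested across all probes. For the members higher in light the root response exceeded the cotyledon response in 18 of 208 and fell short of it in 13, 8.65% and 6.25% against 4.5% and 1.88% of all probes. The hypocotyl response exceeded the cotyledon response in 31 of 145 and fell short in 16, 21.4% and 11% against 23.5% and 4.07%. It exceeded the root response in 16 of 137 and fell short in 5, 11.7% and 3.65% against 10.7% and 3.55%. For the members lower in light the root response was above that of cotyledon in 1 of 127 and below it in 7, 0.787% and 5.51%. The hypocotyl response was above that of cotyledon in 11 of 56 and below it in 1, 19.6% and 1.79%, and above that of root in 10 of 51 and below it in 0, 19.6% and 0%.

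Over the organs, the members higher in light stood above cultured cells in every group by their median. The group medians were highest in stem at 2.88, light cotyledon at 2.72, cauline leaf at 2.67 and rosette leaf at 2.40. They were lowest in dark root at 0.33 and germinating seed at 0.42. In stem 172 of 229 were called higher and 12 lower than cultured cells, 75.1% and 5.24% against 22.8% and 15.7% of all probes. In dark root 54 of 221 were called higher and 44 lower, 24.4% and 19.9% against 13.2% and 19.6% of all probes. The share called lower there was near that of all probes. Dark cotyledon stood at 1.03 and dark hypocotyl at 0.51.

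More of the members higher in light were called above cultured cells than below them in each of the groups that follow. Light cotyledon had 165 of 226 called higher and 18 lower, 73% and 7.96% against 17.7% and 22.1% of all probes. Cauline leaf had 164 of 233 called higher and 14 lower, 70.4% and 6.01% against 21.9% and 16.4% of all probes. Light root had 147 of 222 called higher and 12 lower, 66.2% and 5.41% against 18.5% and 14.5% of all probes. In each of these groups the share called higher was above that of all probes. Light hypocotyl had 91 of 151 called higher and 16 lower, 60.3% and 10.6% against 20.5% and 20.7% of all probes. The share was lower in the dark than in the light cotyledon. Dark cotyledon had 110 of 231 called higher and 40 lower, 47.6% and 17.3% against 20.1% and 20.9% of all probes. Silique 8DPP had 104 of 197 called higher and 29 lower, 52.8% and 14.7% against 18.8% and 19.7% of all probes. Pistil 1DPP had 113 of 231 called higher and 39 lower, 48.9% and 16.9% against 23% and 20.1% of all probes. In these groups, too, more members were called higher than lower. Sepal had 97 of 222 called higher and 52 lower, 43.7% and 23.4% against 22% and 28.8% of all probes. Stamen had 94 of 228 called higher and 60 lower, 41.2% and 26.3% against 23.5% and 25.1% of all probes. Germinating seed had 82 of 213 called higher and 60 lower, 38.5% and 28.2% against 29.3% and 29.4% of all probes. In germinating seed the share called lower was near that of all probes.

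The members lower in light had medians below 0 in stem (-1.29), cauline leaf (-1.21), rosette leaf (-1.12) and light root (-0.28), and above 0 in the other 13 groups, from 0.22 in pistil 1DBP to 1.34 in petal. In stem 89 of 200 were called lower than cultured cells and 8 higher, 44.5% and 4% against 15.7% and 22.8% of all probes. In petal 79 of 181 were called higher and 19 lower, 43.6% and 10.5% against 22.4% and 22.8% of all probes. These signs followed the channel. On all 10 arrays with the organ in channel 1, which are the leaf and stem arrays and light root p1, the class median lay between -1.40 and -0.73, and on the 35 arrays with the organ in channel 2 it lay between 0.00 and 1.49. The members higher in light ranged from 2.26 to 3.03 in channel 1 and from 0.20 to 2.80 in channel 2.

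Light root is the group with both channels. From array n1 to array p1 the median of the members lower in light went from 0.26 to -0.73, with a median difference of -0.89 over 160 probes, 115 of them below 0. For the members higher in light the median difference was 0.68 over 222 probes, and over all 25305 probes it was 0.35. With array n1 alone, where both conditions were in channel 2, the median root response was 1.33 for the members higher in light and -0.83 for those lower in light. For leaves and stem, organ and channel cannot be told apart.

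**Figure D4:**
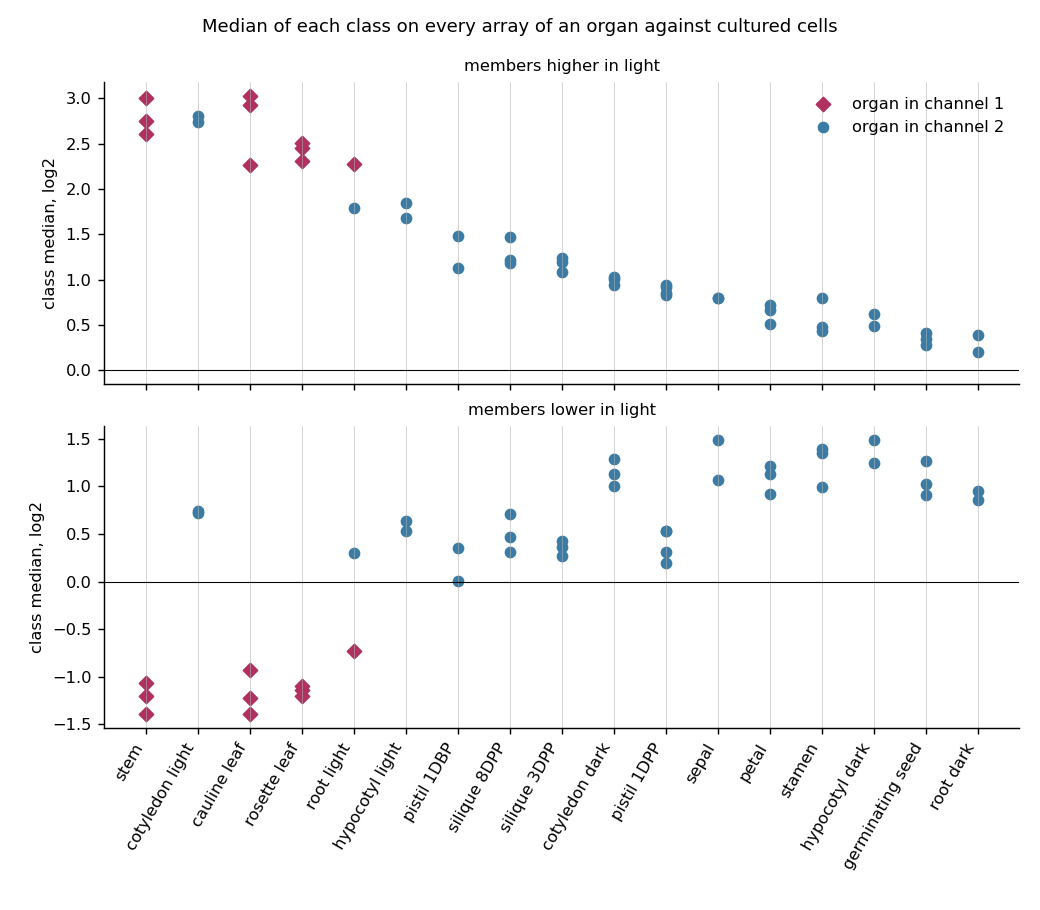
Each point is the median log2 ratio over cultured cells of 1 class of members on 1 array, with diamonds where the organ was in channel 1 and circles where it was in channel 2, and the groups are ordered by the upper panel. In the lower panel all 10 diamonds lie below 0 and no circle does.

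The named members differed in their values over the organs. Leaf and stem values, here and in the next paragraph, all come from channel 1, so organ and channel cannot be told apart in them. AT5G16010 was called above cultured cells in 11 of 17 groups, highest in light cotyledon at 5.68 ± 0.31 (SE) and lowest in dark hypocotyl at -0.93 ± 0.31. AT1G61890 was called higher in 15 of 16 groups and lower in germinating seed at -1.06 ± 0.29. AT1G13930 was called higher in 16 of 17 groups, with 7.50 ± 0.43 in rosette leaf, 7.46 ± 0.43 in stamen and 7.32 ± 0.43 in petal, values that lie within their errors of each other, and stood lowest in dark root at 1.02 ± 0.52. BGLU44 was called higher in all 14 groups tested, from 7.95 ± 0.56 in rosette leaf to 3.26 ± 0.69 in light root. EXPB3 was called higher in all 10 groups tested, highest in silique 3DPP at 8.50 ± 0.63, followed by stem at 7.04 ± 0.63 and pistil 1DPP at 6.99 ± 0.77.

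Calls below cultured cells were more frequent for other members. AT5G12110 was called lower in 11 of 17 groups and higher in stem alone, at 2.18 ± 0.28. AT5G22440 was called lower in 10 of 17 groups, lowest in stamen, sepal and petal at -4.56 ± 0.18, -4.36 ± 0.22 and -4.33 ± 0.18, and AT1G41880 had its lowest values in the same 3 flower organs, -3.12 ± 0.16, -3.31 ± 0.20 and -2.98 ± 0.16. GRX480 was called higher in light root alone, at 2.23 ± 0.30, and lower in 6 of 16 groups, lowest in pistil 1DPP at -4.52 ± 0.21. STZ had calls in both directions, higher in 7 of 16 groups and lower in 5, from 3.64 ± 0.36 in cauline leaf to -2.13 ± 0.31 in pistil 1DPP. Among the members lower in light, CCOAMT was called lower in 12 of 16 groups, lowest in rosette leaf at -5.77 ± 0.60, and AT1G69570 in 12 of 17, lowest in light root at -5.42 ± 0.81.

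**Figure D5:**
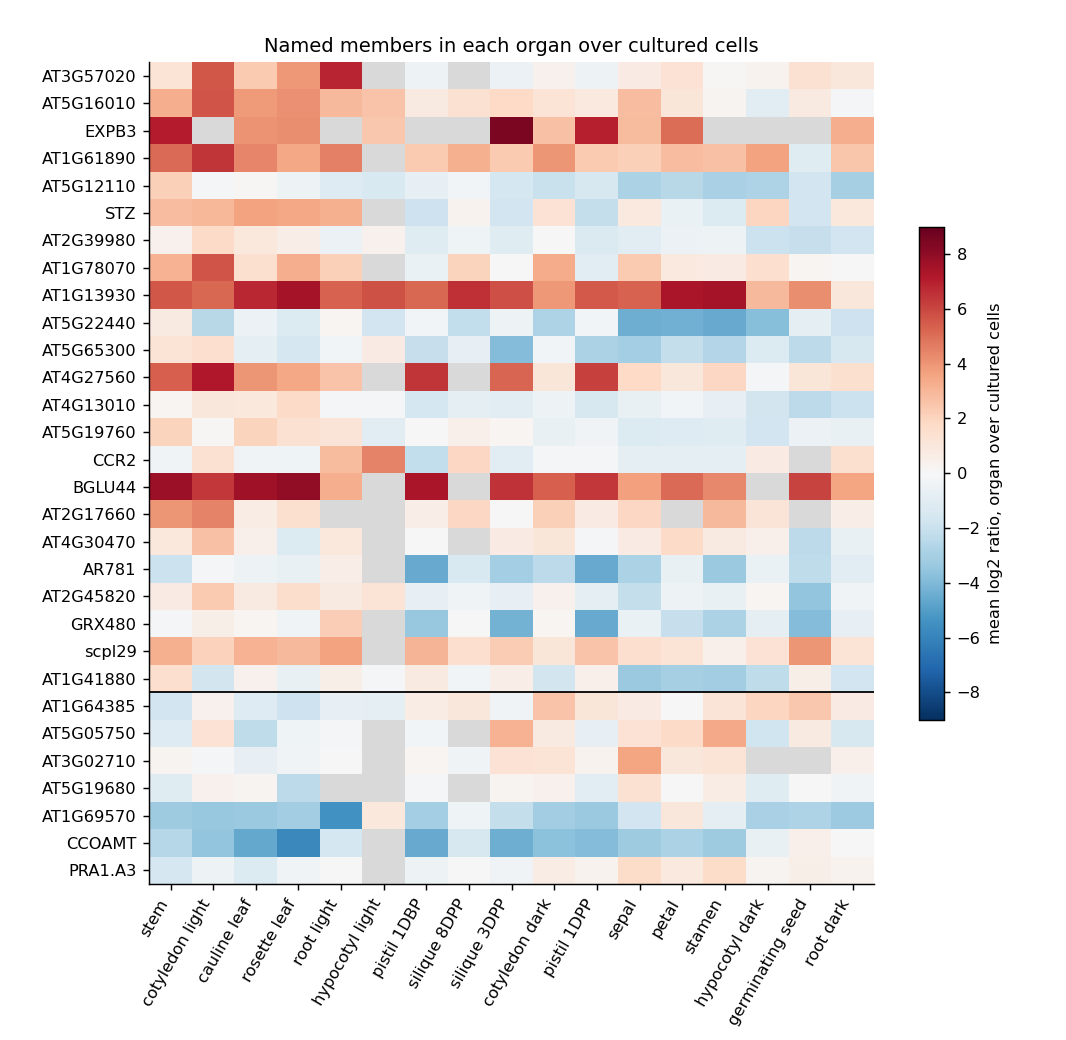
Each row is a named member and each column an organ group, with the colour giving the mean log2 ratio over cultured cells from blue, lower, to red, higher, and grey where a group held too few values, and a black line parts the classes. BGLU44 and AT1G13930 are red across nearly all groups, and AT5G22440 is deepest blue in sepal, petal and stamen.

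Genes of known light pathways were few on the arrays under their names, and differences between organs were not tested for these lists. Of all probes tested through the reference 4.91% were called higher in cotyledon, 5.14% in root and 30.8% in hypocotyl, and 3.17%, 1.08% and 6.63% lower. Of the 9 probes of light harvesting and photosystem genes, 4 of 9 tested were called higher in cotyledon, 1 of 8 in root and 3 of 4 in hypocotyl. The direct hypocotyl arrays, whose direction is not settled, gave 0 higher and 6 lower of 9, where 9.64% and 7.11% of all probes were called. PSAN, a photosystem I subunit, rose by 4.26 ± 0.38 in cotyledon and 3.12 ± 0.42 in hypocotyl, and the 1 root call, 2.93 ± 0.69, was LHB1B2, which the rule left out. Of the genes of chlorophyll synthesis 1 of 5 was called higher in cotyledon (HEMB1, 1.23 ± 0.29), 0 of 5 in root and 3 of 4 in hypocotyl, CHLM with 2.43 ± 0.41 and HEME2 with 2.05 ± 0.40 among them. Both photorespiration genes measured rose in cotyledon, HPR by 3.36 ± 0.77 and AT1G80380 by 2.17 ± 0.39, and neither was called in root. On the direct hypocotyl arrays 0 of 5 chlorophyll synthesis genes were called.

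Of 6 genes of the response to dark and starvation, 3 fell in cotyledon, MCCA, AT4G33150 and AT3G15450 with log2 changes of -1.67 ± 0.34, -1.76 ± 0.41 and -1.71 ± 0.36, while 0 of 6 were called in root and 1 of 5 was called lower in hypocotyl. On the direct hypocotyl arrays, whose direction is not settled, 5 of the 6 were called higher and 0 lower, against 9.64% and 7.11% of all probes. In cotyledon the light regulator SPT fell, at -2.85 ± 0.66, and so did the clock gene GI, at -1.02 ± 0.33, and neither was called in root. Of the wall extension genes EXLA1 rose in all 3 organs through the reference, by 1.51 ± 0.35 in cotyledon, 1.32 ± 0.38 in root and 1.93 ± 0.38 in hypocotyl. On the direct arrays it was called in root, at 1.34 ± 0.27, but not in cotyledon, at 0.22 ± 0.27, or hypocotyl, at 0.12 ± 0.27. EXLA2 was called through the reference in hypocotyl alone, at 1.91 ± 0.68, with -0.52 ± 0.68 in cotyledon and 0.85 ± 0.68 in root. Of 2 flavonoid genes 0 were called in any of the 3 organs, and no carbon fixation gene was measured under its name.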

How the data were processed

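The authors deposited 1 value per probe and array on a log2 scale, with the table's lowest ratio at 0.001, and no source used here says how images, background and normalization were handled. Values below -1 were whole thousandths before the log, within 0.0003. Values of 3 control accessions spotted 17 times each were averaged, for 27600 probes in all. Probes were named through the platform annotation, where 2032 probes carry 1 symbol, of which 2029 matched RefSeq TAIR10.1. Probes of genomic clones (182) and 8 that disagreed within their accession stayed unnamed, leaving 1791 named probes. Medians of the arrays ran from -0.60 to 1.06 and were subtracted. A linear model in limma 3.58.1 (R 4.3.3), with 1 mean per group over all 51 arrays, gave each log2 change with its standard error (±) and a two-sided p, adjusted by Benjamini-Hochberg over all probes of a comparison. A probe needed at least 2 values in every group compared. Tables and figures were made with Python 3.11.15. The fit was tested on simulated data before use. Replicate numbers were not used to pair arrays in the fit.

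The members, the 11 gene lists and the rules were chosen with earlier results of these data known. Every named member is given, with array values for those with the largest direct values or a call; of the lists, up to 3 called genes per comparison. No promoter or protein sequence and no peroxidase marker was used here.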

Additional observations from a re-analysis of the deposited data

Results flagged for a closer look

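The 9 results given here stood out among the named members. In AT5G22440 1 of the 4 pistil 1DPP arrays, at 0.085, lay apart from the others at -0.306, -0.349 and -0.365; groups of 4 were tested 25 times, and chance flags about 1 in 20 groups.

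The other 8 are differences between light responses of organs, each tested in the same limma fit. For AT4G27560 root minus cotyledon was -5.056 (adjusted p = 0.026), and this fell to -3.110 (adjusted p = 0.24) without the light cotyledon array 1, where that gene read 9.15. The same difference lost its call without the dark cotyledon array 1 (0.062), the light root array p1 (0.1), the dark root array 1 (0.087) or the dark root array 2 (0.052), and with scaling (0.051). For AT1G41880 hypocotyl minus cotyledon was 2.081 (adjusted p = 0.00018) and root minus cotyledon 2.177 (adjusted p = 0.00047), and both kept their calls whichever array was left out. For AT5G22440 the same differences were 1.839 (adjusted p = 0.0014) and 1.820 (adjusted p = 0.0059), the first lost with scaling (adjusted p = 0.057) and the latter without the light root array p1 (adjusted p = 0.076). For GRX480 root minus cotyledon was 2.568 (adjusted p = 0.0057), lost without the light root array p1 (0.078) or the dark root array 2 (0.058). For AT1G69570 hypocotyl minus cotyledon was 4.172 (adjusted p = 0.043), lost without any 1 of 8 of the 9 arrays compared (adjusted p from 0.052 to 0.16), with centring on named probes (0.05) and with scaling (0.15), and hypocotyl minus root was 5.996 (adjusted p = 0.012), kept whichever array was left out.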

How the results depend on the processing

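Counts of called members are given as those higher in light and those lower in light, and then all probes where they moved by over 1.5 times. With the replicate block the cotyledon counts were 0, 0 and 0 and the hypocotyl counts 0, 0 and 0; at an unadjusted p under 0.05 this fit found 3758 of 23379 probes in cotyledon and 4657 of 14017 in hypocotyl. Deviations of same-numbered arrays correlated at 0.078 and 0.060 in cotyledon and 0.012 in hypocotyl, so no strong effect shared by the same number was seen. The labels do not say whether such arrays were paired, and these correlations cannot decide it. No block could be fitted in root, where both light arrays carry the number 1. With only the arrays compared, root gave 0, 0 and 0 (2847 of 23808 probes unadjusted), the direct hypocotyl arrays 0, 0 and 0 (8435 of 24882 unadjusted), hypocotyl 66 and, over all probes, 2090, and cotyledon 1007 over all probes; requiring also a value on every array, a setting added after the data were seen, gave 66 and 2090 in hypocotyl and 1015 in cotyledon. These fits have few arrays from which to estimate the spread. With no centring root gave 50 and 574, the direct hypocotyl arrays 158, and hypocotyl minus root 43 and 18. With scaling to a common median absolute value hypocotyl gave 6 members lower in light, the direct hypocotyl arrays 90 and 8863, hypocotyl minus cotyledon 27 and 5, and hypocotyl minus root 10. Leaving out 1 array at a time gave 73 to 107, 14 to 24 and 1068 to 1845 in cotyledon, 23 to 98, 17 to 32 and 228 to 2233 in root, 92 to 101, 7 to 12 and 3903 to 5354 in hypocotyl, and 56 to 59, 29 to 35 and 2091 to 3073 on the direct hypocotyl arrays. For the differences between organs it gave 30 to 48 and 5 to 15 for hypocotyl minus cotyledon, 12 to 26 and 8 to 13 for hypocotyl minus root, and 15 to 33 and 6 to 16 for root minus cotyledon.

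The number of members depends on the rule. It was 149 higher and 379 lower with no centring, 151 and 372 with centring on named probes, 1249 and 991 at a threshold of 0.5, 61 and 60 at 1.5, and 1174 and 856 with scaling, which widens the direct arrays. Asking for 3 of the 4 arrays, which can only add members, gave 300 to 484 higher and 414 to 524 lower. Where no other cause is given, the cause was not tested. Of 914 alternative values for named genes 773 kept their side of the threshold, 135 lost a call, 6 gained one and 0 reversed; of 45 calls 21 held in every fit over all groups. Leaving out values at the lower limit of the table moved none of these counts by over 1.5 times. Members lower in light had fewer values, with a median of 41 values on the 47 arrays the rule did not use, against 45 for the members higher in light.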
